A study of Homo sapiens with 24 samples.

Results

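The heat shock proteins of the cytosol and mitochondria were measured as mRNA in 4 multiple myeloma cell lines in which the transcription factor IRF4 was knocked down. The set held 10 genes, taken by symbol from the 25341 named genes of the deposited expression table: HSP90AA1, HSP90AB1, HSPA1A, HSPA1B, HSPA8, HSPH1, DNAJA1, DNAJB1, HSPD1 and HSPE1. Of these, 9 passed the filter on low values (at least 1 TPM, a read count scaled by gene length and library total, in at least 3 libraries), as did 15113 genes in all, and HSPA1A did not. MM1R, MM1S, KMS-12-BM and KMS-12-PE cells, labelled as cancer cell lines and grown in RPMI medium with serum, each gave 3 siIRF4 libraries, from cells electroporated with pooled siRNAs against IRF4 and labelled 48 hours. Each line also gave 3 CTRL libraries, labelled DMSO and 0 hours, for which no control siRNA is named. Knock down, siRNA as such, electroporation, DMSO and time therefore differ together between siIRF4 and CTRL and cannot be told apart. Nothing in the labels tells whether replicates came from separate cultures, so the p-values measure the spread between these libraries only, which may be technical.

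Heat shock proteins are chaperones that bind unfolded or partly folded proteins and release them in cycles of ATP binding and hydrolysis. HSP70 proteins take up clients delivered by J-domain proteins of the DNAJ family, HSP110 proteins exchange their nucleotide, and HSP90 dimers receive a share of the same clients for late folding steps. In mitochondria, the HSP60 ring encoded by HSPD1 and its lid, HSP10, encoded by HSPE1, fold imported proteins. Transcription of many of these genes is driven by HSF1, which binds repeated GAA units, read on alternating strands, in their promoters. Myeloma cells secrete large amounts of immunoglobulin, and their dependence on chaperones and protein degradation is well known.

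The promoters are shown because the genes share the letters of such repeats to different degrees. RefSeq start-site windows of GRCh38.p14, 300 bases long with 250 before the start site, were found for all 10 genes and searched on both strands. The letters GAANNTTCNNGAA, a run of 3 units, were found in 5 of the 10 genes (HSP90AA1, HSP90AB1, HSPA8, DNAJA1 and HSPD1), against 0.608% of 27305 genes with a window. The shorter run GAANNTTC, which is contained in the longer one, was found in 8 of 10, against 8.21% of genes. The other pair of units, TTCNNGAA, which the longer run also contains, was in 5 of 10, against 9.46% of genes. A CCAAT box, which promoters of many kinds carry, was in 5 of 10, against 39.7% of genes. In the 8 stretches of 30 bases that follow, 5′ to 3′ on the strand of the gene, capitals mark the GAA and TTC units of these runs.
HSP90AA1: gagggttcTTCcgGAAggTTCgggaggcTT
HSP90AB1: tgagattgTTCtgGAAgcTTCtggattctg
HSPA8: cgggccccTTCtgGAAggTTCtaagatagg
DNAJA1: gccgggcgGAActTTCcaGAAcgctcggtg
HSPD1: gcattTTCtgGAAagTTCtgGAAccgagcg
DNAJB1: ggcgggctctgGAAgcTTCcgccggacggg
HSPA1A: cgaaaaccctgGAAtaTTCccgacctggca
HSPA1B: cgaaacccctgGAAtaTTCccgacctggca

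The stretches lie at chr14:102087111-102087140 on the minus strand (HSP90AA1, where the closing TT begins the next run), chr6:44247823-44247852 on the plus strand (HSP90AB1), and chr11:123062170-123062199 on the minus strand (HSPA8). Those of DNAJA1 and HSPD1 lie at chr9:33025268-33025297 on the plus strand and chr2:197500061-197500090 on the minus strand. Those of DNAJB1, HSPA1A and HSPA1B lie at chr19:14518426-14518455 on the minus strand, chr6:31815426-31815455 on the plus strand and chr6:31827622-31827651 on the plus strand. In all of them but DNAJA1, whose run begins at base 4 of the transcript, the run begins 47 to 245 bases before a RefSeq start site. HSPH1 and HSPE1 had none of these letters in their windows. The HSPE1 start site lies 105 bases from one HSPD1 start site, on the opposite strand, whose window held 0 of these runs. The HSPD1 stretch comes from the window of the other HSPD1 start site, 539 bases from that of HSPE1. It lies just outside the HSPE1 window, which begins at position 197500129 of chromosome 2. A match to these letters is a description of the sequence, and HSF1 binding was not measured.

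The libraries held between 17.3 and 27.4 M reads assigned to genes, as recovered from the deposited values. IRF4 averaged 291 ± 27.8, 140.5 ± 12.4, 222 ± 18.0 and 155 ± 4.19 TPM in siIRF4 cells of MM1R, MM1S, KMS-12-BM and KMS-12-PE, against 380.3 ± 17.3, 283 ± 15.2, 361 ± 3.39 and 327 ± 10.3 TPM in CTRL cells (SD, n = 3 each). Its log2 change was -0.39 in MM1R and -1.01 in MM1S, and these differed (difference 0.62 ± 0.094, SE, limma adjusted p = 0.000908). In KMS-12-BM it was -0.70, against -1.07 in KMS-12-PE, and these differed by 0.37 ± 0.094 (adjusted p = 0.0067). All 7 plasma cell markers reached 1 TPM in every group. Their summed level was 4881 to 6584 TPM in siIRF4 and 5487 to 6926 TPM in CTRL cells of the MM1 lines, and 1295 to 1420 TPM in siIRF4 and 1663 to 1784 TPM in CTRL cells of the KMS-12 lines. Markers of other cell types were not absent, were not all low, and differed between lines. KRT5, a keratin of basal epithelia, averaged 34.5 and 17.4 TPM in siIRF4 cells of MM1S and KMS-12-PE, the lines with most members lower, against 50.9 and 55.8 TPM in CTRL cells, and was at most 0.0173 TPM in each group of MM1R and KMS-12-BM. S100A8, a myeloid gene, averaged 43.2 and 19.9 TPM in siIRF4 and 52.7 and 62.3 TPM in CTRL cells of MM1S and KMS-12-PE, and was at 0 in every library of the other lines. The stromal genes DCN and COL1A1 were above 7 TPM in each group of MM1S and KMS-12-PE and below 1 TPM in each group of the other lines, with DCN higher in siIRF4 cells of MM1S (28.0 against 19.2 TPM) and lower in those of KMS-12-PE (7.03 against 31.9 TPM). Other genes of these lists went otherwise. COL6A3 averaged 40.4 TPM in siIRF4 and 67.1 TPM in CTRL cells of KMS-12-BM, and 3.03 to 10.4 TPM in MM1S and KMS-12-PE groups. KRT8 averaged 69.3 TPM in siIRF4 and 66.7 TPM in CTRL cells of KMS-12-BM, and below 1 TPM elsewhere. EPCAM averaged 129 to 152 TPM in KMS-12 groups and 1.14 to 3.18 TPM in MM1 groups. In MM1R S100A9 averaged 94.7 TPM in siIRF4 and 24.8 TPM in CTRL cells. Summed levels of whole lists stood apart between siIRF4 and CTRL in several lines. In KMS-12-PE the sum of 6 stromal markers was 21.4 to 30.2 TPM in siIRF4 and 64.5 to 97.0 TPM in CTRL cells, that of 6 epithelial markers 164 to 185 and 227 to 247 TPM, that of 5 myeloid markers 39.0 to 54.8 and 150.9 to 188 TPM, and that of 5 of 6 T and NK cell markers, in the other direction, 36.1 to 41.3 and 17.6 to 20.4 TPM. In MM1S the stromal, epithelial and myeloid sums were 69.9 to 91.8, 39.2 to 101 and 89.0 to 194 TPM in siIRF4 cells, overlapping 62.9 to 133.8, 90.2 to 128 and 128 to 198 TPM in CTRL cells, while the T and NK sum was 8.18 to 12.0 TPM in siIRF4 and 4.91 to 6.23 TPM in CTRL cells. In KMS-12-BM the stromal sum was 40.5 to 41.9 TPM in siIRF4 and 65.2 to 70.3 TPM in CTRL cells and the myeloid sum 16.4 to 16.8 and 16.99 to 17.8 TPM, and in MM1R the myeloid sum was 125.7 to 134.5 TPM in siIRF4 and 48.9 to 57.3 TPM in CTRL cells and the epithelial sum 3.92 to 4.76 and 4.98 to 6.76 TPM. The part of these markers in the results below was not tested.

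Levels between genes are given in TPM, a scale per length, and the lengths behind it bear on HSPA1A and HSPA1B. Whole reads recovered from the table gave the length by which the authors had divided each gene's reads. It was 12145 bases for HSPA1A and 12601 bases for HSPA1B, against 2483 and 2521 bases of merged exons in GENCODE v29, which is 4.89 and 5.00 times as long. For the other 8 genes the ratio was 0.482 to 0.971, and its median over 18531 genes was 0.772. The ratio was over 3 in 136 of 192 genes of the major histocompatibility region (chr6:28000000-34000000, GRCh38), where HSPA1A and HSPA1B lie, and in 0.398% of genes elsewhere. Their TPM levels are therefore not set beside those of the other genes here. Ratios of TPM of either gene between libraries do not depend on the divisor. The filter at 1 TPM, which HSPA1A did not pass, and the size of changes in log2(TPM + 1) do depend on it. A longer divisor makes such changes smaller. HSPA1A and HSPA1B are also near-identical. Of the 50-base words of the HSPA1A transcript 72.6% occur in HSPA1B, and of those of HSPA1B 71.4% occur in HSPA1A, so reads could be split between them or left uncounted. For the other members, the share of 50-base words found in transcripts of other genes, pseudogenes among them, was 27.2% for HSPE1, 24.8% for HSPD1, 15.4% to 18.8% for HSPA8 and both HSP90 genes, and at most 2.57% for DNAJA1, DNAJB1 and HSPH1.

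In CTRL cells the most abundant of the other 8 mRNAs were HSPA8, the constitutive cytosolic HSP70, with group means of 1522 to 3487 TPM, HSP90AB1, the constitutive cytosolic HSP90, with 1629 to 2445 TPM, and HSPD1, with 980.4 to 1907 TPM. HSP90AA1, the inducible cytosolic HSP90, had 369 to 1266 TPM, and DNAJA1, a J-domain partner of HSP70, 295 to 664 TPM. The least abundant were HSPE1 (149 to 335 TPM), DNAJB1, the J-domain partner most induced by heat (97.8 to 202 TPM), and HSPH1, the HSP110 nucleotide exchange factor (46.8 to 91.1 TPM). Together these 8 genes made up 4344 ± 59.0 TPM in siIRF4 and 5094 ± 213 TPM in CTRL cells of MM1R, and 5759.7 ± 112 and 7799.5 ± 218 TPM in MM1S. They made up 6671 ± 291 TPM in siIRF4 and 6950.5 ± 137 TPM in CTRL cells of KMS-12-BM, and 8419 ± 141 and 10319 ± 299.6 TPM in KMS-12-PE (SD, n = 3 each). The siIRF4 and CTRL sums did not overlap in MM1R, MM1S or KMS-12-PE, and overlapped in KMS-12-BM.

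**Figure D1:**
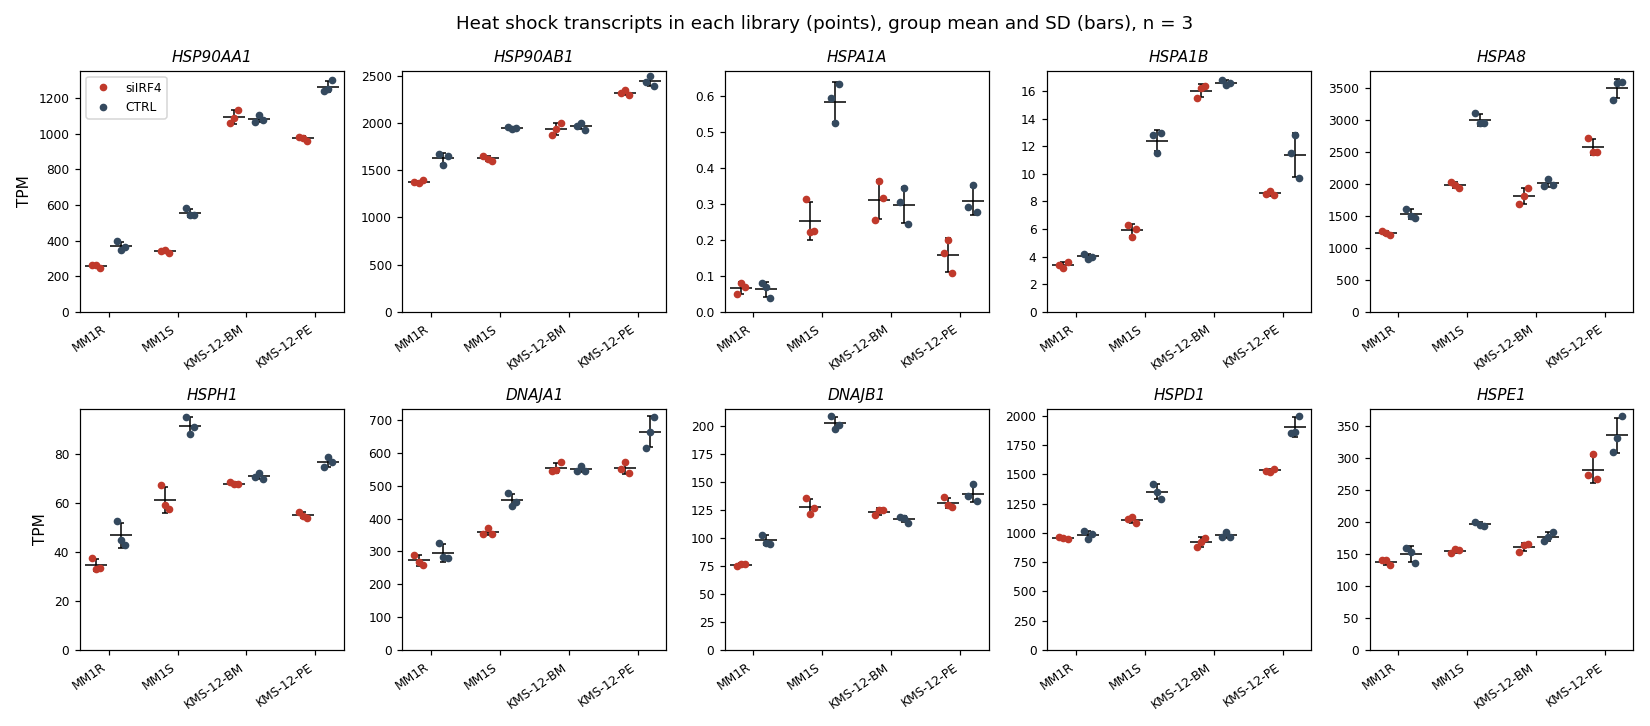
TPM of each of the 10 heat shock genes (vertical axes, each from 0) in every library of the 4 lines, siIRF4 in red left of CTRL in dark blue, with bars for the mean and SD of 3 libraries. In MM1S all siIRF4 points lie below all CTRL points in each of the 10 panels, while in KMS-12-BM they do so in 5 panels.

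Most of the heat shock mRNAs were lower in siIRF4 than in CTRL cells in 3 of the 4 lines. In MM1S all 9 tested members were lower in siIRF4 cells (21.1% of all genes tested were lower), with a median log2 change of -0.57 against 0.04 for all genes. In KMS-12-PE 8 of 9 were lower (22.2% of all genes), all but DNAJB1, with a median of -0.31 against -0.02. In MM1R 6 of 9 were lower (21.2% of all genes), with a median of -0.24 against 0.03, and DNAJA1, HSPD1 and HSPE1 did not pass the test. In KMS-12-BM only HSPA8 was lower, 1 of 9 (6.09% of all genes), and the median was -0.05 against 0.04. No member was called higher in any line by limma (25.0%, 29.1%, 11.4% and 15.9% of all genes in MM1R, MM1S, KMS-12-BM and then KMS-12-PE), 0 had an unadjusted p under 0.05 in that direction, and voom on the recovered reads called 0 higher in each line. Averaged over the 4 lines all 9 were lower (26.5% of all genes), with log2 changes of -0.40 to -0.15. In these bulk libraries, fewer cells of a kind and less mRNA per cell cannot be told apart.

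Counted without a test and with HSPA1A, every siIRF4 library was below every CTRL library of its line for 6 of 10 genes in MM1R (24.4% of the genes that passed the filter), 10 of 10 in MM1S (22.6%), 5 of 10 in KMS-12-BM (12.3%) and 9 of 10 in KMS-12-PE (27.7%). The 5 genes in KMS-12-BM were HSPA8, HSPA1B, HSPH1, HSPD1 and HSPE1. There DNAJB1 was the 1 gene with each siIRF4 library above each CTRL library (22.0% of the genes that passed), and both HSP90 genes, DNAJA1 and HSPA1A overlapped.

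**Figure D2:**
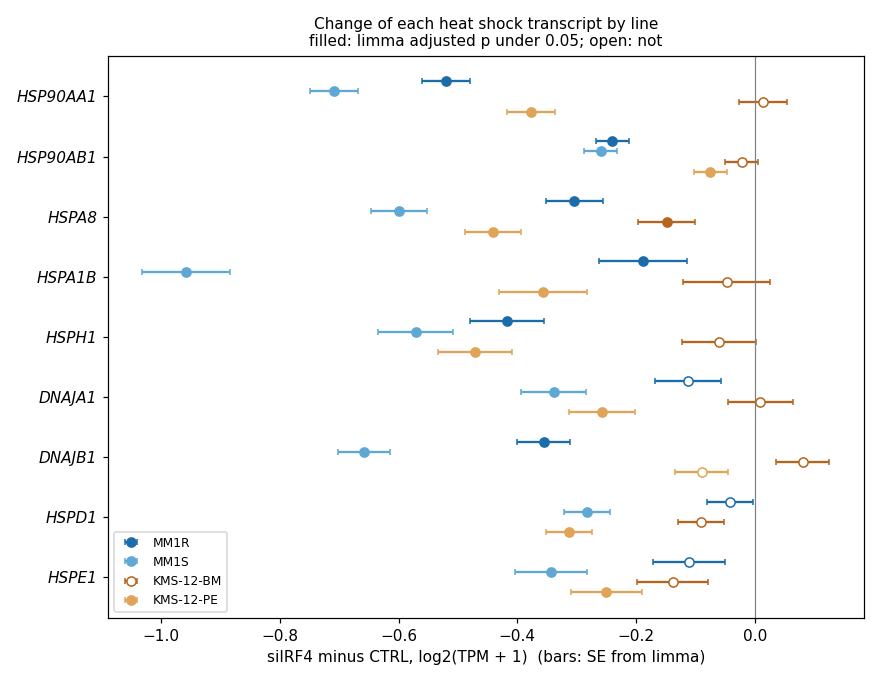
Log2 change (siIRF4 minus CTRL) of the 9 tested heat shock genes in each line, with SE from limma. Filled points passed the test and open points did not. The KMS-12-BM points lie between -0.15 and 0.08, and the MM1S points between -0.96 and -0.26.

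Of the cytosolic HSP90 pair, HSP90AA1 had the larger log2 changes in MM1R, MM1S and KMS-12-PE. In MM1R, HSP90AA1 was at 260.0, 262 and 248 TPM in siIRF4 cells, against 396, 347 and 364 TPM in CTRL cells. In MM1S it was at 341, 347 and 333 TPM in siIRF4 cells, against 584, 543 and 544 TPM in CTRL cells. The groups stood apart in both MM1 lines, and the log2 change was -0.52 ± 0.040 in MM1R and -0.71 ± 0.040 in MM1S (SE, limma adjusted p = 1.34e-09 and 1.24e-11). In KMS-12-PE the gene was at 983, 979 and 962 TPM in siIRF4 cells, against 1244, 1254 and 1302 TPM in CTRL cells, again with no overlap (log2 change -0.38 ± 0.040, adjusted p = 2.14e-07). In KMS-12-BM it was at 1059.8, 1090.4 and 1134 TPM in siIRF4 cells and 1067, 1105 and 1079.7 TPM in CTRL cells. There the groups overlapped, and the 95% interval of the log2 change was -0.07 to 0.10. The change in KMS-12-BM was higher than that in KMS-12-PE by 0.39 ± 0.057 (adjusted p = 4.17e-05).

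HSP90AB1 is the more abundant and less inducible of the pair. Its means were 1379 ± 12.1 TPM in siIRF4 and 1629 ± 59.3 TPM in CTRL cells of MM1R, and 1627 ± 27.5 and 1948 ± 14.9 TPM in MM1S (SD, n = 3 each). The groups did not overlap in either line, and the log2 changes were -0.24 ± 0.028 and -0.26 ± 0.028 (SE, adjusted p = 5.09e-07 and 1.31e-07). In KMS-12-BM the means were 1938 ± 65.1 TPM in siIRF4 and 1968 ± 34.6 TPM in CTRL cells, with overlapping groups (95% interval of the log2 change -0.08 to 0.04). In KMS-12-PE they were 2321 ± 27.1 and 2445 ± 52.0 TPM, a log2 change of -0.07 ± 0.028 that passed narrowly (adjusted p = 0.0416). That call was lost in 5 of 9 other settings (adjusted p 0.0403 to 0.432 over the 9) and without siIRF4 replicate 1, 2 or 3 or CTRL replicate 1 or 2 (values -0.07, -0.08, -0.07, -0.08 and -0.06).

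The ratio of HSP90AB1 to HSP90AA1 within a library shows the unequal change. In MM1R it was 5.23 to 5.61 in siIRF4 and 4.23 to 4.54 in CTRL libraries, and in MM1S 4.68 to 4.86 and 3.37 to 3.58. In KMS-12-PE it was 2.36 to 2.40 in siIRF4 and 1.84 to 1.99 in CTRL libraries, and in KMS-12-BM, the other way, 1.77 in all 3 siIRF4 and 1.79 to 1.85 in CTRL libraries. The groups stood apart in every line, with the smallest two-sided p an exact permutation test of 3 against 3 can give, 0.10. Over the 8 such tests of both ratios the adjusted p was 0.20 for each of these 4. The log2 difference of the ratio was 0.28 in MM1R, 0.45 in MM1S, 0.30 in KMS-12-PE and -0.04 in KMS-12-BM. In CTRL cells the ratio was also higher in the MM1 lines than in the KMS-12 lines, with no overlap between any MM1 and any KMS-12 library.

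**Figure D3:**
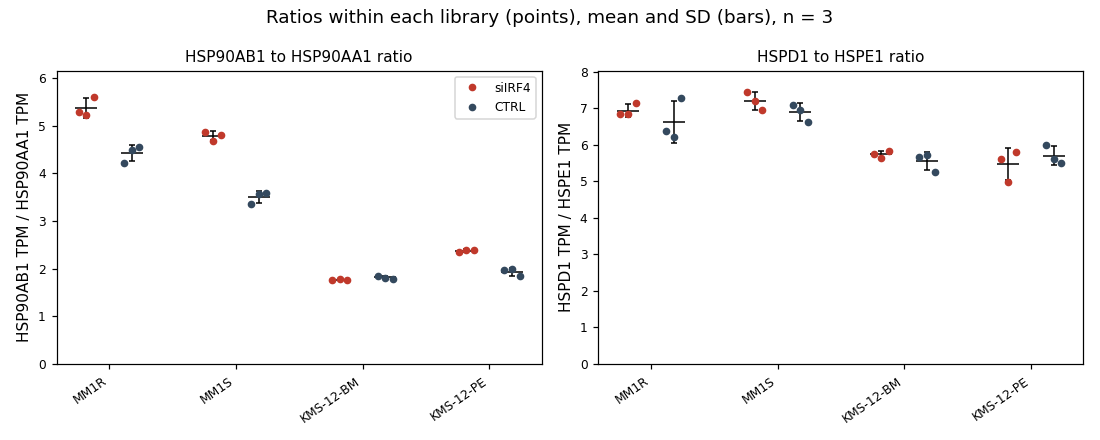
Ratio of HSP90AB1 to HSP90AA1 TPM (left) and of HSPD1 to HSPE1 TPM (right) in every library, siIRF4 in red left of CTRL in dark blue, with mean and SD of 3 libraries. The HSP90 ratio lies above CTRL in siIRF4 cells of MM1R, MM1S and KMS-12-PE, while the HSPD1 to HSPE1 ratios of siIRF4 and CTRL overlap in every line.

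HSPA8, the constitutive HSP70 that also uncoats clathrin vesicles, fell in all 4 lines. In MM1S it was at 2029, 1973 and 1928 TPM in siIRF4 cells, against 3100.0, 2948 and 2940.5 TPM in CTRL cells. In KMS-12-PE it was at 2717, 2495 and 2494 TPM in siIRF4 cells, against 3310.1, 3568 and 3582 TPM in CTRL cells. The groups were far apart in both lines, with log2 changes of -0.60 ± 0.048 in MM1S and -0.44 ± 0.048 in KMS-12-PE (SE, adjusted p = 1.44e-09 and 2.72e-07). In MM1R it was at 1264, 1229 and 1202 TPM in siIRF4 cells, against 1610.2, 1495 and 1460.1 TPM in CTRL cells (log2 change -0.30 ± 0.048, adjusted p = 2.09e-05). In KMS-12-BM it was at 1686, 1806 and 1938 TPM in siIRF4 cells, against 1968, 2071 and 1972 TPM in CTRL cells. The KMS-12-BM groups did not overlap but nearly met, and the log2 change of -0.15 ± 0.048 had an adjusted p of 0.0351. That call was lost without siIRF4 replicate 1 or 2 or CTRL replicate 1, 2 or 3 (values -0.10, -0.15, -0.16, -0.12 and -0.16) and in 3 of 9 other settings (adjusted p 0.0144 to 0.0962 over the 9).

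The stress-inducible HSP70 genes HSPA1A and HSPA1B differed widely in reads. HSPA1A had 4 to 76 reads per library and never reached 1 TPM. In MM1S it was at 0.312, 0.221 and 0.224 TPM in siIRF4 cells, against 0.595, 0.523 and 0.632 TPM in CTRL cells, with no overlap. With no filter on low values (23154 genes tested) HSPA1A fell by 0.34 in MM1S and by 0.18 in KMS-12-PE on the log2(TPM + 1) scale (limma adjusted p = 2.56e-05 and 0.0152). This scale understates changes so far below 1 TPM. HSPA1B had 371 to 2271 reads per library. In MM1S it was at 6.30, 5.46 and 5.97 TPM in siIRF4 cells, against 12.8, 11.5 and 12.9 TPM in CTRL cells, the largest change on the log2(TPM + 1) scale among the 9 tested members in any line (-0.96 ± 0.074, adjusted p = 9.4e-10). In KMS-12-PE it was at 8.52, 8.78 and 8.47 TPM in siIRF4 cells, against 11.5, 12.8 and 9.68 TPM in CTRL cells (log2 change -0.36 ± 0.074, adjusted p = 0.000627). In KMS-12-BM it was at 15.5 to 16.4 TPM in siIRF4 and 16.4 to 16.8 TPM in CTRL cells, and the 95% interval of the log2 change was -0.20 to 0.11. In MM1R it was at 3.18 to 3.64 TPM in siIRF4 and 3.85 to 4.18 TPM in CTRL cells, and the log2 change of -0.19 ± 0.074 passed narrowly (adjusted p = 0.043). The MM1R call was lost without siIRF4 replicate 1 or 2 or CTRL replicate 1 or 3 (values -0.19, -0.15, -0.16 and -0.19) and in 2 of 9 other settings (adjusted p 0.0221 to 0.0954 over the 9). With HSPA1A and HSPA1B summed into 1 feature, the change was called in the same 3 lines.

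HSPH1, the HSP110 that resets HSP70 by nucleotide exchange, was at 37.3, 33.2 and 33.5 TPM in siIRF4 cells of MM1R, against 52.6, 44.9 and 42.9 TPM in CTRL cells. In MM1S it was at 67.1, 58.9 and 57.3 TPM in siIRF4 cells, against 94.99, 87.7 and 90.6 TPM in CTRL cells. In KMS-12-PE it was at 56.1, 54.7 and 53.9 TPM in siIRF4 cells, against 74.6, 78.5 and 76.5 TPM in CTRL cells. The groups stood apart in these 3 lines, with log2 changes of -0.42 ± 0.063, -0.57 ± 0.063 and -0.47 ± 0.063 (SE, adjusted p = 1.22e-05, 1.5e-07 and 4.28e-06). In KMS-12-BM it was at 67.4 to 68.4 TPM in siIRF4 and 69.7 to 72.0 TPM in CTRL cells, and the 95% interval of the log2 change was -0.19 to 0.07.

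Of the J-domain partners of HSP70, DNAJB1 fell in the MM1 lines. It was at 75.1, 76.9 and 76.6 TPM in siIRF4 cells of MM1R, against 102.8, 95.8 and 94.9 TPM in CTRL cells. In MM1S it was at 135, 121 and 127 TPM in siIRF4 cells, against 208, 197 and 200.4 TPM in CTRL cells. The log2 changes were -0.36 ± 0.044 and -0.66 ± 0.044 (SE, adjusted p = 1.15e-06 and 1.39e-10). In KMS-12-BM the means were 123 ± 2.91 TPM in siIRF4 and 117 ± 2.81 TPM in CTRL cells, and in KMS-12-PE 131 ± 4.54 and 139.5 ± 7.94 TPM (SD, n = 3 each). Neither change passed the test, with 95% intervals of -0.01 to 0.17 and -0.18 to 0.00. Without CTRL replicate 3 the KMS-12-PE change was -0.12 (adjusted p = 0.049, against 0.104 to 0.411 over the 9 other settings). The mean change of DNAJB1 in the MM1 lines was lower than in the KMS-12 lines by 0.50 ± 0.044 on the log2 scale (adjusted p = 9.14e-09), the largest such difference among the members.

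DNAJA1 fell in MM1S and KMS-12-PE. Its means were 359 ± 10.6 TPM in siIRF4 and 455 ± 19.3 TPM in CTRL cells of MM1S, and 554 ± 17.1 and 664 ± 47.2 TPM in KMS-12-PE (SD, n = 3 each). The log2 changes were -0.34 ± 0.056 and -0.26 ± 0.056 (SE, adjusted p = 2.8e-05 and 0.000869). In MM1R it was at 290, 269 and 259 TPM in siIRF4 and 325, 282 and 279 TPM in CTRL cells, overlapping groups that did not pass the test (log2 change -0.11, adjusted p = 0.104). Without siIRF4 replicate 1 or CTRL replicate 3 of MM1R the change was -0.16 or -0.15 (adjusted p = 0.0397 and 0.0482, against 0.0667 to 0.226 over the 9 other settings). In KMS-12-BM the 95% interval of the log2 change was -0.11 to 0.13.

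The mitochondrial pair HSPD1 and HSPE1 fell in MM1S and KMS-12-PE. HSPD1 was at 1123, 1134 and 1081 TPM in siIRF4 cells of MM1S, against 1422, 1354 and 1286 TPM in CTRL cells. In KMS-12-PE it was at 1530.2, 1523 and 1548 TPM in siIRF4 cells, against 1855, 1862 and 2003 TPM in CTRL cells. Both changes passed the test, at -0.28 ± 0.039 and -0.31 ± 0.039 on the log2 scale (SE, adjusted p = 2.9e-06 and 1.55e-06). HSPE1 averaged 154.5 ± 3.50 TPM in siIRF4 and 196 ± 3.37 TPM in CTRL cells of MM1S, and 281 ± 20.9 and 335 ± 27.7 TPM in KMS-12-PE (SD, n = 3 each). Its log2 changes were -0.34 ± 0.060 and -0.25 ± 0.060 (adjusted p = 5.94e-05 and 0.00229). In MM1R the 95% intervals of the log2 change were -0.12 to 0.04 for HSPD1 and -0.24 to 0.01 for HSPE1, and in KMS-12-BM they were -0.17 to -0.01 and -0.26 to -0.01, with adjusted p of 0.115 and 0.121 over all genes. HSPE1 in MM1R was called without CTRL replicate 3 (-0.18, adjusted p = 0.0226, against 0.111 to 0.223 over the other settings). HSPD1 in KMS-12-BM was called without siIRF4 replicate 3 (-0.12, adjusted p = 0.0485, against 0.0587 to 0.17 over the other settings). The ratio of HSPD1 to HSPE1 overlapped between siIRF4 and CTRL in each line, with group means between 5.48 and 7.20 and exact permutation p of 0.2 to 0.5, two-sided. A test of 3 against 3 cannot go below 0.10.

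The siIRF4 minus CTRL change differed between lines in tests of the difference itself. Between MM1R and MM1S 4 of 9 members differed, each with the smaller fall in MM1R, where 2.47% of all genes differed and 1.14% in this direction. They were HSPA1B (0.77 ± 0.10), DNAJB1 (0.30 ± 0.063), HSPA8 (0.30 ± 0.068) and HSPD1 (0.24 ± 0.055), as log2 differences of MM1R minus MM1S (SE, adjusted p 0.000296 to 0.0224). The count was 2 without MM1S siIRF4 replicate 3 and without MM1S CTRL replicate 1, where HSPA8 and HSPD1 missed the threshold, and 6 without MM1R CTRL replicate 1, where HSP90AA1 and DNAJA1 joined. HSPA8 also missed it without MM1R CTRL replicate 3 (0.27), and HSPD1 without MM1R siIRF4 replicate 2. A further miss of HSPA8 came with replicate numbers as a block (adjusted p = 0.054, against 0.00533 to 0.054 over the settings that keep every library). Within the KMS-12 pair 6 of 9 differed, each with the smaller fall or no fall in KMS-12-BM, where 23.0% of all genes differed and 15.9% in this direction. They were HSPH1 (0.41 ± 0.089), HSP90AA1 (0.39 ± 0.057), HSPA1B (0.31 ± 0.10), HSPA8 (0.29 ± 0.068), DNAJA1 (0.27 ± 0.079) and HSPD1 (0.22 ± 0.055), with adjusted p of 4.17e-05 to 0.0376. With median-of-ratios scaling 3 of the 6 remained, HSPH1, HSP90AA1 and HSPA8, and the share of lower among all called genes was 47.6% in place of 30.9%. HSPA1B missed the threshold in 10 of 12 fits that left out 1 library (0.22 to 0.41 over the 12) and with no filter on low values, and DNAJA1 without KMS-12-PE CTRL replicate 3 (0.22).

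Taken in pairs, the MM1 lines had a lower mean change, a larger fall, than the KMS-12 lines for 6 of 9 members. Of all genes, 44.9% differed and 20% in this direction. The 6 members were DNAJB1 (-0.50), HSP90AA1 (-0.43 ± 0.040), HSPA1B (-0.37 ± 0.074), HSPH1 (-0.23 ± 0.063), HSP90AB1 (-0.20 ± 0.028) and HSPA8 (-0.16 ± 0.048), with adjusted p of 9.14e-09 to 0.0106. DNAJA1, HSPD1 and HSPE1 did not differ past the threshold, with 95% intervals of -0.22 to 0.01, -0.04 to 0.12 and -0.16 to 0.09. By line, the fall was smaller in MM1R than in KMS-12-PE for HSPA8 (-0.30 against -0.44), HSPH1 (-0.42 against -0.47) and HSPA1B (-0.19 against -0.36). It was larger in MM1R for DNAJB1 (-0.36 against -0.09), HSP90AA1 (-0.52 against -0.38) and HSP90AB1 (-0.24 against -0.07). Single MM1 lines were not tested against single KMS-12 lines. MM1R, with a log2 change of IRF4 of -0.39, had 6 members lower, and KMS-12-BM, with -0.70, had 1. In KMS-12-BM the split of all called genes depended on the scaling, with 1730 higher and 920 lower as deposited and 1382 higher and 1472 lower with median-of-ratios scaling.

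CTRL cells of the lines already differed in these mRNAs. All 9 members were lower in MM1R than in MM1S CTRL cells (27.6% of all genes), with log2 differences of -0.26 ± 0.028 for HSP90AB1 to -1.42 ± 0.074 for HSPA1B (adjusted p 5.76e-14 to 9.24e-06). Of the KMS-12 pair, CTRL cells of KMS-12-BM were lower than those of KMS-12-PE in 7 members (40% of all genes) and higher in 1, HSPA1B (0.52 ± 0.074, 37.3% of all genes). HSPD1 differed most there, at 980.4 ± 23.1 TPM in KMS-12-BM and 1907 ± 83.3 TPM in KMS-12-PE CTRL cells (SD, n = 3 each), and HSPH1 did not pass the test (95% interval -0.24 to 0.02). Averaged by pair, the MM1 lines were lower than the KMS-12 lines in 8 members (44.8% of all genes), above all HSP90AA1 (-1.37 ± 0.028, adjusted p = 1.93e-21). The pair average was higher in DNAJB1 (0.14 ± 0.031, adjusted p = 0.000296, 40.4% of all genes). Yet DNAJB1 averaged 97.8 TPM in MM1R, the lowest CTRL group, and 202 TPM in MM1S, the highest. HSP90AA1, HSP90AB1 and DNAJA1 had lower CTRL means in each MM1 line than in each KMS-12 line. For HSPA1B, HSPA8, HSPH1, HSPD1 and HSPE1 the MM1S mean exceeded that of a KMS-12 line or of both.

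Ordered over the 8 groups, HSP90AA1 was lowest in MM1R siIRF4 (257 TPM) and highest in KMS-12-PE CTRL cells (1266 TPM), and of its neighbours in that order only both KMS-12-BM groups overlapped. HSPA8 had the same lowest and highest groups (1232 and 3487 TPM), with MM1S siIRF4 cells overlapping each of the KMS-12-BM groups in the middle. HSP90AB1, DNAJA1 and HSPE1 had them too, while HSPD1 was lowest in KMS-12-BM siIRF4 cells (921 TPM), overlapping MM1R siIRF4. HSPH1 and DNAJB1 were highest in MM1S CTRL cells (91.1 and 202 TPM) and HSPA1B in KMS-12-BM CTRL cells, whose range stood just above that of KMS-12-BM siIRF4 cells.

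The rest of the chaperone network was read from lists of other genes. Of 11 other tested genes of the HSP70 and HSP110 system, 9 were lower on average over the lines, where 26.5% of all genes were lower and 33.1% higher, with a median log2 change of -0.17, against 0.02 for all genes. By line, 9 were lower in MM1R (21.2% of all genes) and 7 in MM1S (21.1%). For KMS-12-PE the count of lower genes was 4 (22.2%). ST13 alone passed the test in KMS-12-BM and was higher (0.13 ± 0.037), as were 11.4% of all genes. HSPA4L, an HSP110 relative, fell most (-0.47 ± 0.040). Its changes were -0.82 and -1.04 in MM1R and MM1S, against 0.00 and -0.01 in the KMS-12 lines, and it was at 14.6 and 21.7 TPM in siIRF4 and 26.6 and 45.9 TPM in CTRL cells of MM1R and MM1S. In KMS-12-BM it averaged 0.275 TPM in siIRF4 and 0.278 TPM in CTRL cells, too low to show a change. BAG3, which links HSP70 to autophagy, fell by 0.28 and HSPA14 by 0.22. Of 12 other HSP90 system genes 1 was higher and 7 lower (median -0.14), led by the co-chaperones FKBP4 (-0.36 ± 0.016), AHSA1 (-0.25 ± 0.016), which stimulates the HSP90 ATPase, and the phosphatase PPP5C (-0.25 ± 0.020). UNC45A, a chaperone of myosin, rose by 0.13. Of 14 genes of the chaperonin TRiC, which folds actin and tubulin, and of its partner prefoldin, 12 were lower and 1, PFDN5 (0.16 ± 0.027), higher (median -0.17). CCT6A (-0.28), TCP1 (-0.23) and CCT7 (-0.22) fell most. In MM1R, MM1S, KMS-12-BM and KMS-12-PE, 9, 11, 2 and 11 of these 14 genes were lower and 1, 1, 0 and 0 higher. Of the 12 HSP90 system genes, 7, 6, 3 and 6 were lower and 0, 1, 0 and 2 higher. Of all genes, 21.2%, 21.1%, 6.09% and 22.2% were lower and 25.0%, 29.1%, 11.4% and 15.9% higher in these lines.

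In mitochondria, 9 of 15 other chaperones and proteases were lower and 3 higher on average (median -0.10). Of all genes, 26.5% were lower and 33.1% higher on average. In MM1R, MM1S, KMS-12-BM and KMS-12-PE, 5, 8, 4 and 7 of the 15 were lower and 4, 3, 0 and 0 higher. Of all genes, 21.2%, 21.1%, 6.09% and 22.2% were lower and 25.0%, 29.1%, 11.4% and 15.9% higher in these lines. On average the protease LONP1 (-0.28 ± 0.030), the mitochondrial HSP70 gene HSPA9 (-0.27 ± 0.017) and the protease HTRA2 (-0.16) fell most. SPG7 (0.17), HSCB (0.09) and DNAJC19 (0.06) rose on average. The DNAJC19 call was lost with median-of-ratios scaling (0.04, adjusted p = 0.118, the highest of its settings, whose lowest was 0.0145). Of 12 other J-domain genes 6 were lower and 2 higher (median -0.04). In KMS-12-BM 3 of them were higher (11.4% of all genes) and the median was 0.06. DNAJC9, a histone chaperone, was at -0.27 on average, with -0.54 in MM1R and -0.66 in MM1S and, not past the threshold, 0.06 and 0.04 in the KMS-12 lines. The averages of the others named were -0.21 for DNAJA4, -0.12 for DNAJC2, 0.15 for DNAJB14 and 0.30 for DNAJB4. Of 5 tested small heat shock genes 2 were lower (median -0.18). HSPB1, which encodes HSP27, fell by 0.51 ± 0.038, with group means of 61.2 to 1222 TPM in siIRF4 and 90.6 to 1579 TPM in CTRL cells. HSPB11 fell by 0.24. Leaving out single libraries or changing the setting moved the list counts averaged over the lines by at most 1 in any of the 32 refits. List counts by line were not recomputed.

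**Figure D4:**
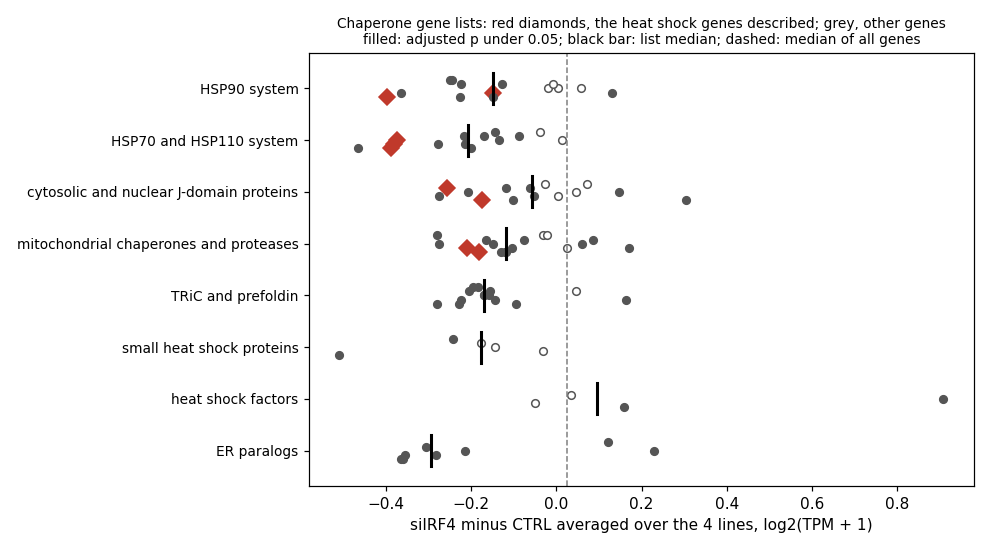
Log2 change averaged over the 4 lines (siIRF4 minus CTRL) of every tested gene of 8 chaperone lists, 1 list per row, with the 9 heat shock genes described as red diamonds, other genes in grey, filled where they passed the test. A black bar marks each list's median and the dashed line that of all genes (0.02), and the medians of 7 lists lie below it, with heat shock factors above.

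Of 4 tested genes of the heat shock factor list, which holds the regulators of heat shock transcription, 2 were higher on average (median 0.10), where 33.1% of all genes were. HSF1 rose on average by 0.16 ± 0.030 (SE, adjusted p = 0.000104), at 194 and 235 TPM in siIRF4 and 162 and 199 TPM in CTRL cells of MM1S and KMS-12-PE, the lines in which it passed the test. HSF2 was at -0.05 ± 0.026 on average and did not pass (adjusted p = 0.115). By line HSF2 was lower in MM1R (-0.20 ± 0.053, adjusted p = 0.00435) and passed in no other line, with 0.14 in KMS-12-BM. Its mean effect in the MM1 lines was lower than in the KMS-12 lines (-0.18 ± 0.053, adjusted p = 0.00898). HSF4 rose by 0.91 ± 0.051 on average. It was at 31.2 ± 1.85 TPM in siIRF4 and 11.5 ± 0.253 TPM in CTRL cells of MM1R, and at 25.6 ± 3.35 and 7.06 ± 1.22 TPM in MM1S (SD, n = 3 each). In the KMS-12 lines its log2 changes were 0.11 and 0.43, and the MM1 effect was higher by 1.27 ± 0.10 (adjusted p = 2.31e-09). These are mRNA levels, and the activity of HSF1, which is set after translation, was not measured.

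Of 8 tested relatives in the endoplasmic reticulum (ER), 6 were lower on average (26.5% of all genes), DNAJB11, HSP90B1 and HSPA5 most (-0.36 each). The list median was -0.29, and DNAJC10 (0.23) and DNAJB9 (0.12) were higher (33.1% of all genes). The last pair went in opposite directions by line, with log2 changes of 0.57 and 0.53 in MM1R and 0.60 and 0.32 in MM1S, against -0.29 and -0.26 in KMS-12-PE, each past the threshold, and 0.04 and -0.11 in KMS-12-BM, which did not pass. All 8 were lower in KMS-12-PE (22.2% of all genes) and 5 in KMS-12-BM (6.09%). In the MM1 lines 1 was lower in MM1R (21.2%) and 3 in MM1S (21.1%). HSP90B1, the ER HSP90, was at 2113 ± 20.8 TPM in siIRF4 and 2101 ± 83.3 TPM in CTRL cells of MM1R, and at 1318 ± 17.3 and 2235 ± 105 TPM in KMS-12-PE. In MM1S it was lower in siIRF4 cells, at 2084 ± 28.6 against 2336 ± 95.9 TPM, with no overlap (log2 change -0.16). In MM1R the ER gene HSPA5 was at 744 ± 5.74 TPM in siIRF4 and 699 ± 26.9 TPM in CTRL cells (log2 change 0.09). HSPA5, the ER HSP70 also called BiP, was at 651 ± 15.3 TPM in siIRF4 and 642 ± 16.9 TPM in CTRL cells of MM1S. In KMS-12-BM HSPA5 was at 468 ± 43.3 and 796 ± 31.6 TPM (SD, n = 3 for each of these groups). KMS-12-BM, in which the log2 change was 0.01 for HSP90AA1 and -0.15 for HSPA8, had log2 changes of -0.52 ± 0.045 for HSP90B1 and -0.77 ± 0.047 for HSPA5 (adjusted p = 3.81e-08 and 2.94e-10). The mean effect in the MM1 lines minus that in the KMS-12 lines was 0.57 ± 0.045 for HSP90B1 and 0.82 ± 0.047 for HSPA5 (adjusted p = 1.86e-09 and 3.26e-11), of the opposite sign to that of HSP90AA1 and HSPA8. All 8 ER genes tested were higher in that contrast (25.0% of all genes), and 0 of 9 members were higher by limma (0 at an unadjusted p under 0.05) or by voom. These contrasts share their libraries, so the signs are set side by side and are not independent.

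**Figure D5:**
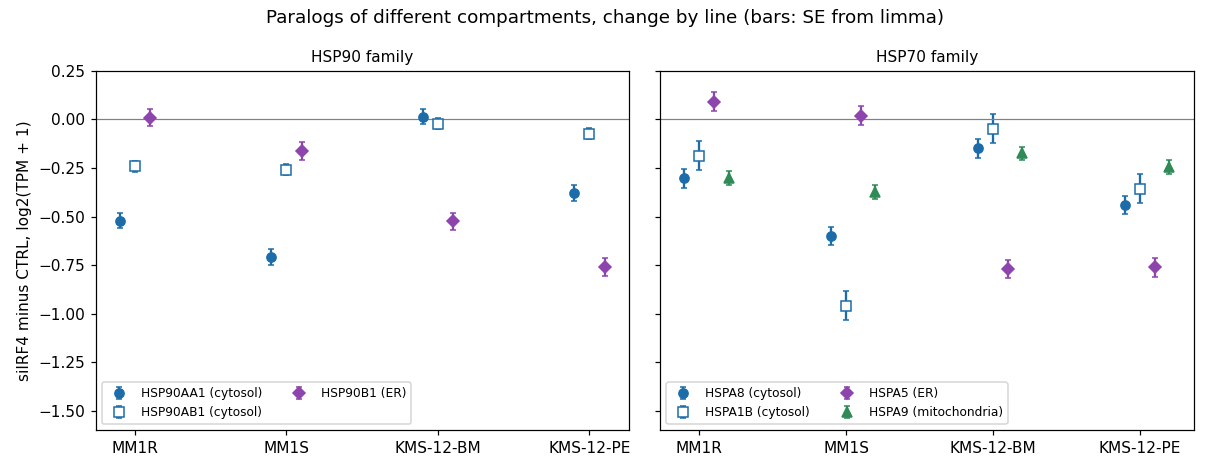
Log2 change (siIRF4 minus CTRL, bars SE from limma) by line for HSP90 genes (left) and HSP70 genes (right), blue for cytosolic, purple for ER and green for mitochondrial members. In MM1R and MM1S the blue points lie below the purple ones, and in both KMS-12 lines above them.

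The genes most like 3 of the members in level over the 8 groups were looked for among 6849 genes with a mean of at least 20 TPM, by the root mean square (RMS) difference of log2(TPM + 1), each gene centred on its own mean. COQ3 (0.134), SIVA1 (0.147) and the HSP90 co-chaperone AHSA1 (0.154) were nearest to HSP90AA1, and the nearest member was DNAJA1 at rank 395 (0.432). PSMD1, a proteasome subunit, was nearest to HSPA8 (0.0817), followed by COPS8 (0.146) and CACYBP (0.16), and the nearest member was HSPD1 at rank 34 (0.231). ZC3H15 (0.0521), SLC30A6 (0.0591) and BZW1 (0.0755) were nearest to HSPD1, and HSPE1 was at rank 106 (0.153).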

How the data were processed

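Total RNA of 24 libraries was sequenced, with 3 siIRF4 and 3 CTRL libraries of each of 4 lines. Per the submitters' processing notes, reads were aligned to hg19 with STAR and counted with featureCounts, with FastQC and MultiQC reports. The sources used here give no versions, annotation or strandedness. The deposited values are the authors' TPM, read counts per gene length scaled to 1 total in each library, as the table's name and its column sums show. A total of 28 rows with date-like symbols and 1 with no symbol were left out.

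Whole reads (within 0.02) and the lengths used were recovered for 20484 genes, at least 99.96% of each library's TPM. Replicates were not copies of each other, since chi-square per gene between them was at least 2.1. Tests used limma 3.58.1 in R 4.3.3 on log2(TPM + 1), in 1 fit of 8 group means with a trended, robust prior, two-sided, with Benjamini-Hochberg adjustment over 15113 genes in each of 11 comparisons and a threshold of 0.05. Differences are siIRF4 minus CTRL with their SE, and the added 1 TPM understates changes of low genes. Named genes were all members, IRF4, HSF1, HSF2, HSP90B1, HSPA5, up to 3 risen and 3 fallen genes of each list and 3 genes most like each of 3 members. The alternatives were median-of-ratios scaling, a pseudocount of 0.1, a filter at a mean of 5 TPM or none, no trend, a replicate block, separate fits, voom on recovered reads, HSPA1A and HSPA1B summed, and each library left out. The members and lists were chosen with earlier results of these data known. Python 3.11.15, numpy 2.4.6, pandas 2.3.3, scipy 1.17.1 and matplotlib 3.10.9 were used. Sequences are RefSeq's on GRCh38.p14. The result of 1 further marker list is not reported here.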

Additional observations from a re-analysis of the deposited data

Results flagged for a closer look

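The results in this section stood out because the siIRF4 minus CTRL change differed between lines, by the interaction term of the limma fit, as log2 differences. Between MM1R and MM1S the difference was positive, with the smaller fall in MM1R, for HSPA1B (0.77), DNAJB1 (0.303), HSPA8 (0.295) and HSPD1 (0.24). The same held for IRF4 itself (0.621). Between KMS-12-BM and KMS-12-PE it was positive, with the smaller fall or no fall in KMS-12-BM, for HSPH1 (0.411), HSP90AA1 (0.391), HSPA1B (0.309), HSPA8 (0.292), DNAJA1 (0.268) and HSPD1 (0.223). IRF4 also fell less in KMS-12-BM (0.372). Between the mean of the MM1 lines and that of the KMS-12 lines the difference was -0.502 for DNAJB1, -0.433 for HSP90AA1, -0.371 for HSPA1B, -0.228 for HSPH1, -0.201 for HSP90AB1 and -0.157 for HSPA8. It was 0.186 for IRF4, 1.27 for HSF4, 0.565 for HSP90B1 and 0.821 for HSPA5.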

How the results depend on the processing

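Of 3789 recomputed single-gene changes 3708 kept direction and call, 61 lost and 20 gained it, and 0 reversed, and 406 of 418 counts of members stayed within 1.5 times. The count of members lower in KMS-12-BM, 1, became 0 with no filter, with no trend in the prior and in a separate fit, and lay between 0 and 2 when 1 library was left out. The count of members that fell less in MM1R than in MM1S, 4, lay between 2 and 6 when 1 library was left out. The count of members with a smaller fall or no fall in KMS-12-BM against KMS-12-PE, 6, became 3 with median-of-ratios scaling. The call of IRF4 in the MM1 minus KMS-12 contrast was lost in 5 of 24 refits without 1 library (0.15 to 0.23). No pairing of libraries by replicate number was seen. Of same-numbered pairs, 0 of 12 correlated above 0.1 (-0.0878 to 0.0861), and 2 siIRF4 libraries correlated best with their own number. Such correlations cannot show whether same-numbered libraries shared a culture. With replicate numbers as a block, 6, 9, 1 and 7 members were lower in MM1R, MM1S, KMS-12-BM and KMS-12-PE and 3 differed between MM1R and MM1S. CTRL of different lines could not be compared with the block, which lies within lines. The cause of these changes was not tested, and the low reads of HSPA1A limit what can be seen of it.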
